A study of Homo sapiens with 5 samples.

Results

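The tricarboxylic acid (TCA) cycle and the reactions that feed and drain it were examined through a list of 31 genes, which covers the pyruvate dehydrogenase complex, the enzymes of the cycle, and enzymes of anaplerosis and export. Members were taken by gene symbol, and each was read by the probe with the highest mean normalized signal over the 5 arrays. A probe named for the gene was available for 28 of the 31 members, of 20041 genes with a named probe in all. SDHB, FH and GPT2 had no named probe in the annotation used and were not analysed here.

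The cycle oxidizes acetyl-CoA, which the pyruvate dehydrogenase complex makes from pyruvate, and passes electrons to the respiratory chain. Anaplerotic enzymes such as pyruvate carboxylase and glutamate dehydrogenase refill its intermediates, and citrate that leaves the mitochondrion supplies acetyl-CoA for lipid synthesis and histone acetylation. Human pluripotent stem cells are known for strong glycolysis, with glucose and glutamine both feeding the cycle.

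The cells were H1, an established human embryonic stem cell line, grown on Matrigel in E8, a chemically defined medium. For 2 days cells received plain E8, added pyruvate at 16 mM, BMP4, or both agents, and in the last condition they received both for 6 days. BMP4 is a signalling protein that was used here to drive cells towards mesoderm, and its dose is not given in the sources used here. Total RNA from each condition was read on 1 Illumina BeadChip array, so no value below has a replicate error, no test was possible between conditions, and the number of arrays limits the precision.

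Of 47296 probes, 35.2% to 40.1% were detected per array. The day 2 array with both agents stood at least 0.5 log2 units above the other day 2 arrays in 430 of 9728 genes and below them in 594, against at most 84 and 80 genes for any other array of that day. The 9728 genes were detected on all day 2 arrays. A gene was counted only if the other day 2 arrays lay within 0.5 log2 units of each other. Pluripotency markers were detected for 9 of 9 genes on each day 2 array and 5 of 9 at day 6, where NANOG and SOX2 were not detected. Primitive streak and mesoderm markers were detected for 3, 2, 5, 8 and 10 of 11 genes on the arrays of E8, pyruvate, BMP4, BMP4 plus pyruvate at day 2 and the same at day 6, in that order. TBXT and MIXL1 were detected on the 3 arrays with BMP4 and not on the other 2, and GATA4 only at day 6. Markers of trophoblast and amnion (1 of 8 in E8, 5 of 8 at day 6) and of endoderm (0 of 5 and 5 of 5) also differed, while neuroectoderm markers were detected for 3 of 5 and 2 of 5. The part of cell composition in the differences below was not tested.

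Promoter sequences are shown for the 4 of 28 members that were lower by 1.5-fold or more at day 6 than in E8. That share is below the 23.7% of all detected genes. The limit is a cut on size alone, and GLUD1 (-0.57) and SUCLA2 (-0.56 on the log2 scale) lay just short of it. The 4 shown are as follows. These are CS (chr12:56300331-56300580, minus strand), MDH2 (chr7:76047856-76048105, plus strand), SDHA (chr5:218070-218319, plus strand) and GOT2 (chr16:58734317-58734566, minus strand), each the 250 bases before the annotated start, 5′ to 3′ on the gene's strand, from RefSeq on GRCh38.p14. Capitals mark matches to the core of NRF1 (GCGCA, any 1 base, then GCGC), a regulator of nuclear genes for mitochondrial proteins, to the ETS core of GABPA (CCGGAAG), another such regulator, or to the E-box of MYC (CACGTG).
CS: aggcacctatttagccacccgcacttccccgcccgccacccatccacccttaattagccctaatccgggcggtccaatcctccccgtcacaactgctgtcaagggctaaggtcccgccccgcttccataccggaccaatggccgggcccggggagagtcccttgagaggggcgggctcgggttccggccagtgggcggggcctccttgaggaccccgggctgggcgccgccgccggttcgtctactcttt
MDH2: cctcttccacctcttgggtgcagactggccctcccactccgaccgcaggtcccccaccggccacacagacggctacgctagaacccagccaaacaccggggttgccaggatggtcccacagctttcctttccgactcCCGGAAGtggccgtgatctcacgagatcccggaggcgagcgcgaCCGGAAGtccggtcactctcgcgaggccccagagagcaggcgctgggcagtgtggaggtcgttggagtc
SDHA: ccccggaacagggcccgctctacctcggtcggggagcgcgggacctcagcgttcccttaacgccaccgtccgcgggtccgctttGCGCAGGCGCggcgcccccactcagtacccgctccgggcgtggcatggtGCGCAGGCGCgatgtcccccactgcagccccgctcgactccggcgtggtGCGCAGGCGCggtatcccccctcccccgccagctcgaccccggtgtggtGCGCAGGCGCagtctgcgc
GOT2: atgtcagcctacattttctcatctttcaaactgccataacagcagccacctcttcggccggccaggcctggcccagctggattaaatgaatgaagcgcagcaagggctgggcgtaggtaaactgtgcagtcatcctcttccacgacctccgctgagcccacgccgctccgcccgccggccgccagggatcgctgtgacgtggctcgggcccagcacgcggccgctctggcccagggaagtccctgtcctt
The SDHA window held 4 copies of the NRF1 core, the nearest ending 10 bases before the start, and the MDH2 window held 2 copies of the GABPA core. The windows of CS and GOT2 held no match to these letters. Both strands were searched, and no capitals in the shown windows belong to more than 1 motif.

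Promoter windows of that length were available for 26 of the 28 members, all but SDHC and OGDH. The NRF1 core was present in 6 of them (23.1%), namely SDHA, SDHD, IDH3A, IDH3G, GLUD1 and SUCLA2, against 5.07% of 35116 promoters and 10.2% of the 9960 promoters of detected genes. The GABPA core was present in 5 (19.2%), namely MDH2, DLST, IDH3B, IDH3G and SDHD, against 8.52% and 15.4%. The MYC E-box was present in PDHB alone (3.85%), against 6.34% and 8.94%. The NRF1 letters were settled after the members' sequences had been viewed, and a match is a description of the letters, not of binding.

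All 28 members were detected on the arrays of E8, pyruvate and day 6, and 27 on the other 2, where the probe of PC was not detected. Levels are given as normalized log2 signal, and a difference of 1 is a 2-fold difference. Since the RNA came from whole cultures, a lower share of cells with a transcript and less transcript per cell cannot be told apart. The distance between the lowest and the highest array had a median of 0.63 over the 27 members detected on all arrays, against 0.77 over 9239 genes detected on all arrays. Within day 2 these medians were 0.40 and 0.53. The day 6 array was the lowest of the 5 for 14 of 28 members, where it was the lowest for 34.5% of all detected genes. The pyruvate array was the highest for 10 of 28 members, where it was the highest for 18.8% of all detected genes.

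**Figure D1:**
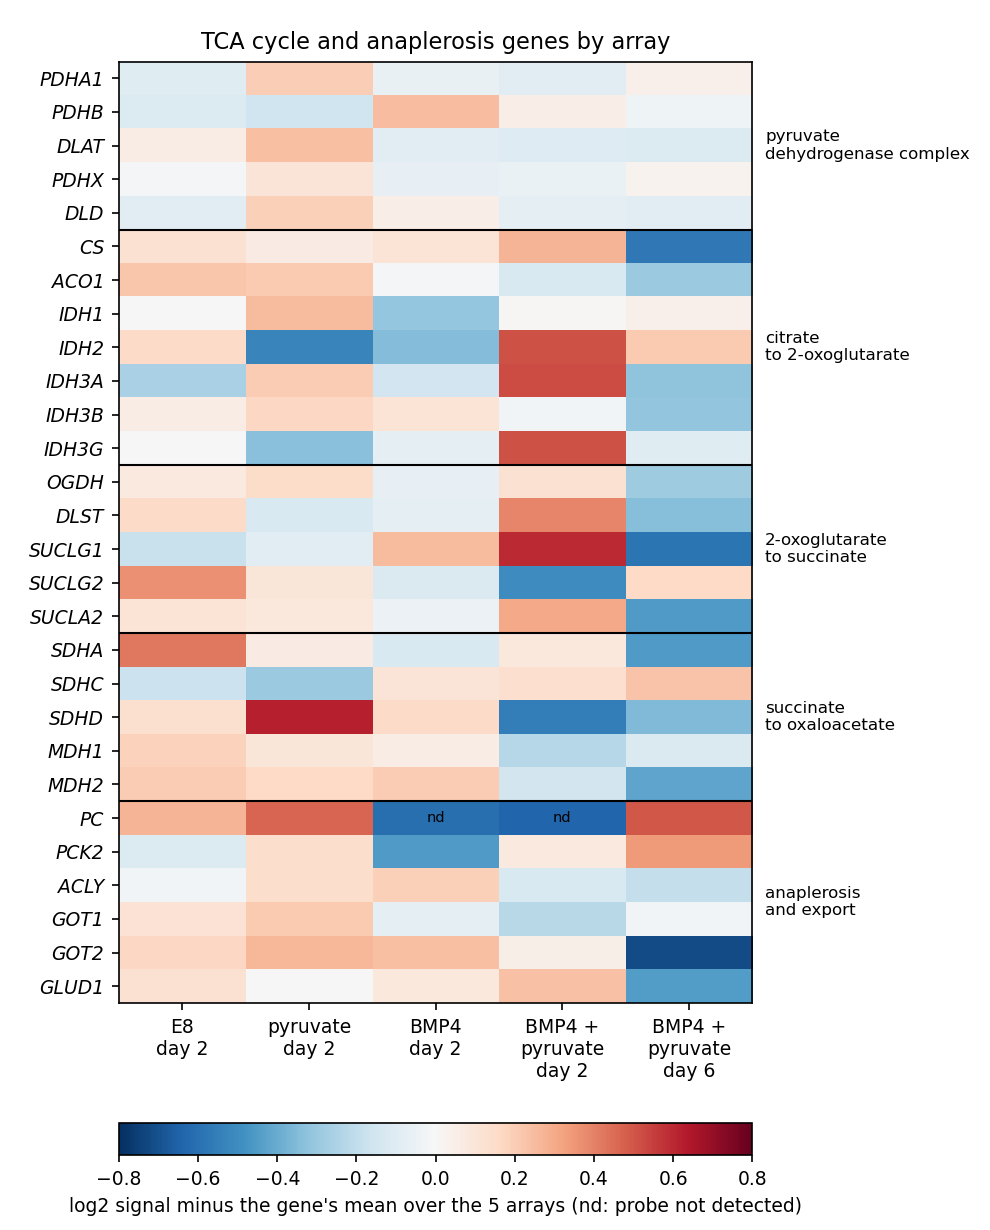
Each row is 1 of the 28 genes, each column 1 array, and colour gives the normalized log2 signal minus the gene's mean over the 5 arrays; nd marks a probe that was not detected. The pyruvate dehydrogenase rows are pale, and 14 rows have their lowest value at day 6.

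The pyruvate dehydrogenase complex, which commits pyruvate to the cycle, varied least of the 5 roles, with a median distance between lowest and highest array of 0.29 over its 5 genes and a largest one of 0.40. PDHA1, the alpha subunit of the E1 component, had levels of 10.94 in E8, 11.23 with pyruvate, 10.97 with BMP4, 10.95 with BMP4 plus pyruvate and 11.07 at day 6. PDHB, the E1 beta subunit, had 12.67, 12.62, 13.02, 12.83 and 12.75 in the same order. PDHB was highest with BMP4, while the pyruvate array was the highest for the other 4 genes. DLAT, the E2 acetyltransferase, lay between 9.64 and 9.99, PDHX, the E3-binding protein, between 9.88 and 10.04, and DLD, the E3 dehydrogenase that the 2-oxoglutarate dehydrogenase complex shares, between 10.55 and 10.83. With pyruvate the median difference of the 5 genes from E8 was 0.18, and at day 6 it was 0.04. No gene of the complex differed by 1.5-fold in any of the 6 comparisons.

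The steps from citrate to 2-oxoglutarate varied most, with a median distance between lowest and highest array of 0.85 over 7 genes. CS, citrate synthase, had levels of 12.58 in E8, 12.52 with pyruvate, 12.56 with BMP4, 12.73 with BMP4 plus pyruvate and 11.88 at day 6. It was lowest at day 6, and the 4 day 2 arrays lay close together. All 3 CS probes were detected and lower at day 6 than in E8, by -0.70, -0.65 and -1.16 on the log2 scale. ACO1, the cytosolic aconitase that also serves as an iron sensor, was highest in E8 (11.99) and lowest at day 6 (11.48). IDH1, the cytosolic NADP-dependent isocitrate dehydrogenase, lay between 12.48 with BMP4 and 13.05 with pyruvate.

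IDH2, the mitochondrial NADP-dependent isocitrate dehydrogenase, had levels of 9.58 in E8, 8.89 with pyruvate, 9.08 with BMP4, 9.94 with BMP4 plus pyruvate and 9.64 at day 6. Each agent alone went with a lower level than E8, and both together with a higher one. IDH3A, the catalytic subunit of the NAD-dependent enzyme of the cycle, had 8.49, 8.95, 8.60, 9.27 and 8.43 in the same order. Its regulatory subunit IDH3G had 8.76, 8.43, 8.69, 9.27 and 8.66. Both were highest with BMP4 plus pyruvate at day 2, while IDH3B, the other regulatory subunit, was highest with pyruvate (10.80) and lowest at day 6 (10.31). IDH2 and IDH3A were read by 1 probe each, and the second probe of IDH3G was not detected.

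From 2-oxoglutarate to succinate, all 5 genes lay below E8 at day 6, where 52.1% of all detected genes did. Their median difference was -0.40, against -0.04 over all genes. Of the 5, 0 were lower by 1.5-fold or more, where 23.7% of all genes were. The same 5 of 5 lay below E8 when arrays were scaled to the 75th percentile (median -0.35). SUCLG1, the alpha subunit shared by both forms of succinyl-CoA synthetase, had levels of 10.92 in E8, 11.01 with pyruvate, 11.35 with BMP4, 11.69 with BMP4 plus pyruvate and 10.51 at day 6. SUCLA2, the beta subunit of the ADP-forming enzyme, had 11.68, 11.65, 11.52, 11.87 and 11.12. SUCLG2, the beta subunit of the GDP-forming enzyme, had 11.14, 10.87, 10.65, 10.26 and 10.93. SUCLG1 and SUCLA2 were highest, and SUCLG2 lowest, with BMP4 plus pyruvate at day 2. Both SUCLA2 probes were lower at day 6 than in E8, by -0.56 and -0.67.

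DLST, the E2 component of the 2-oxoglutarate dehydrogenase complex, had levels of 8.60 in E8, 8.32 with pyruvate, 8.36 with BMP4, 8.83 with BMP4 plus pyruvate and 8.10 at day 6. It was highest with both agents at day 2 and lowest at day 6. OGDH, the E1 component of that complex, was also lowest at day 6 (8.14) and lay between 8.36 and 8.58 on the day 2 arrays.

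**Figure D2:**
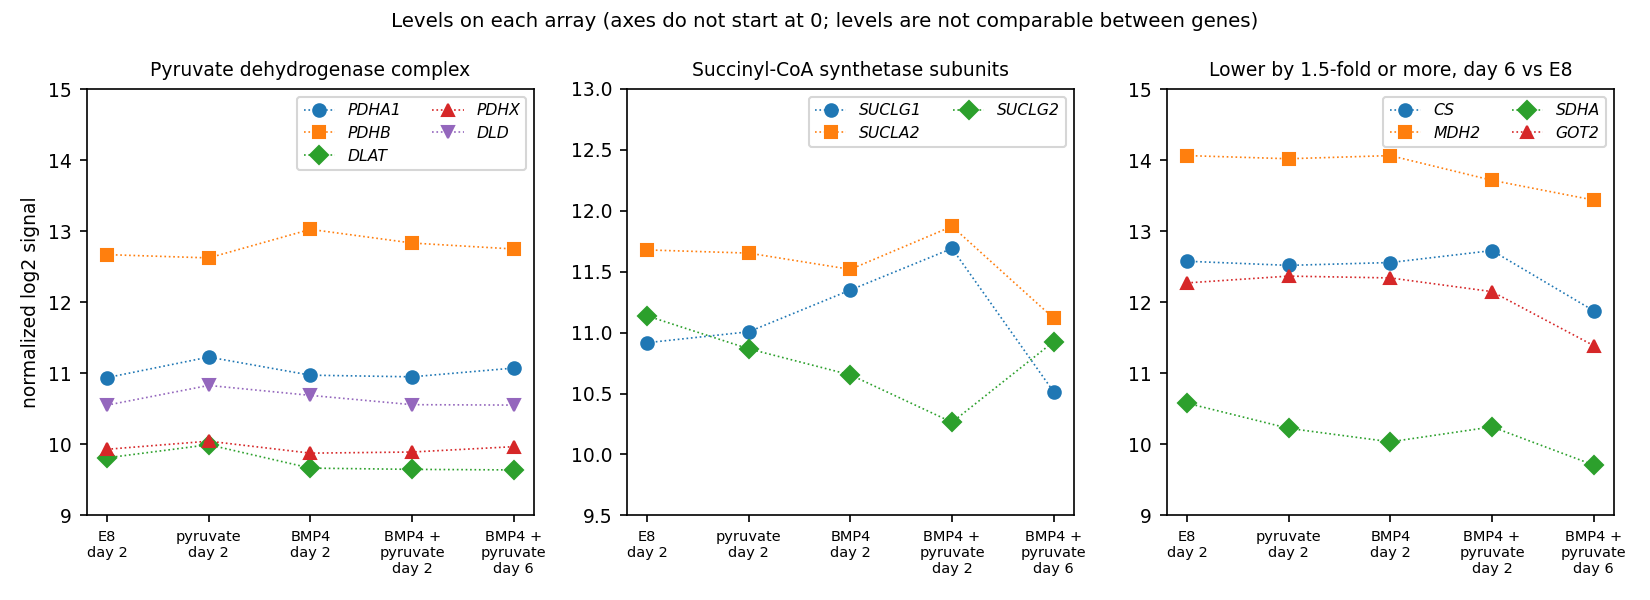
Points give the normalized log2 signal of single genes on each of the 5 arrays, with dotted lines only to guide the eye, for the pyruvate dehydrogenase complex (left), succinyl-CoA synthetase (middle) and the 4 genes lower by 1.5-fold or more at day 6 than in E8 (right). With both agents at day 2, SUCLG1 stood at 11.69 and SUCLG2 at 10.26, the highest and the lowest value of each gene.

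From succinate to oxaloacetate, SDHA, the flavoprotein subunit of succinate dehydrogenase, had levels of 10.58 in E8, 10.22 with pyruvate, 10.03 with BMP4, 10.25 with BMP4 plus pyruvate and 9.71 at day 6. E8 was its highest array and day 6 its lowest, and both SDHA probes gave a lower level at day 6 than in E8 (-0.87 and -0.74). SDHD, a membrane anchor subunit, had 10.49, 10.98, 10.51, 9.81 and 10.01. It was highest with pyruvate alone and lowest when BMP4 was added to pyruvate. SDHC, the other membrane anchor, lay between 9.92 with pyruvate and 10.44 at day 6.

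MDH2, the mitochondrial malate dehydrogenase, had levels of 14.06 in E8, 14.02 with pyruvate, 14.06 with BMP4, 13.72 with BMP4 plus pyruvate and 13.44 at day 6. The first 3 arrays differed by at most 0.04, and day 6 was the lowest. MDH1, the cytosolic form, lay between 12.45 with BMP4 plus pyruvate at day 2 and 12.87 in E8.

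Among the genes of anaplerosis and export, PC, pyruvate carboxylase, which makes oxaloacetate from pyruvate, had a level of 6.48 in E8, 6.67 with pyruvate and 6.70 at day 6. With BMP4 (5.60) and with BMP4 plus pyruvate at day 2 (5.57) its probe was not detected. These values lie near the lowest signal of any detected probe (5.51 to 5.91 by array). A second PC probe was detected only in E8 and with BMP4 plus pyruvate at day 2, so the probes of PC disagree on the array with both agents. GOT2, the mitochondrial aspartate aminotransferase, had levels of 12.27 in E8, 12.37 with pyruvate, 12.34 with BMP4, 12.15 with BMP4 plus pyruvate and 11.39 at day 6. GLUD1, glutamate dehydrogenase, had 12.19, 12.07, 12.16, 12.30 and 11.62. Both were lowest at day 6, apart from 4 day 2 arrays that lay close together.

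PCK2, the mitochondrial phosphoenolpyruvate carboxykinase, had levels of 9.64 in E8, 9.89 with pyruvate, 9.29 with BMP4, 9.83 with BMP4 plus pyruvate and 10.09 at day 6. It was the lowest with BMP4 alone. ACLY, the ATP citrate lyase that turns exported citrate into acetyl-CoA, lay between 12.22 at day 6 and 12.60 with BMP4. GOT1, the cytosolic aspartate aminotransferase, lay between 11.01 with BMP4 plus pyruvate at day 2 and 11.44 with pyruvate.

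Added pyruvate in E8 at day 2 left the list close to E8. IDH2 was lower (-0.69), which makes 1 of 28 members lower by 1.5-fold or more, where 7.12% of 11475 genes were, and 0 higher, where 5.16% were. At 2-fold, 0 members were higher (1.05% of all genes) and 0 lower (1.32%). The largest positive differences were those of SDHD (0.49) and IDH3A (0.46), both below 1.5-fold. The median over members was 0.08, and that over all detected genes was 0.00. Differences from 2 probes of a gene had an SD of 0.399 between probes over 2996 genes, and the IDH2 difference has 1 probe behind it.

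BMP4 at day 2 likewise differed little from E8 in these genes. PC alone of 28 members was lower by 1.5-fold or more, where 8.59% of 11559 genes were, and 0 were higher, where 6.41% were. Because no PC probe was detected with BMP4, its level was at least 1.51-fold lower than in E8. The second PCK2 probe, not detected with BMP4, gave -1.11 with a bound of -0.97. The brightest PCK2 probe gave -0.35 and the third -0.02. No member passed 2-fold in either direction, where 2.68% of all genes were higher and 2.52% lower. SDHA (-0.54), IDH2 (-0.50) and SUCLG2 (-0.48) were the next lowest and SUCLG1 (0.43) and PDHB (0.36) the highest differences. The median was -0.06 over members and -0.01 over all genes.

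Pyruvate added to BMP4 at day 2 went with higher levels of IDH2 (0.86), IDH3A (0.68) and IDH3G (0.59), and a lower level of SDHD (-0.70). These are 3 of 27 detected members higher by 1.5-fold or more and 1 lower, where 12.5% of all genes were higher and 12.1% lower. Neither share exceeds that of all genes. The other isocitrate dehydrogenase genes, IDH1 (0.32) and IDH3B (-0.13), did not reach 1.5-fold. Without background correction, 1 member was higher by 1.5-fold or more. IDH3G lies at the limit, and it was at 0.52 with scaling to the 75th percentile, 0.55 with offset 50, 0.56 in the deposited log2 values and 0.58 when only these arrays were normalized, which leaves 2 members higher in each. At 2-fold, 0 members were higher (3.72% of all genes) and 0 lower (3.06%). The median was 0.32 over the 7 genes from citrate to 2-oxoglutarate and 0.34 over the 5 from there to succinate, against -0.28 from succinate to oxaloacetate. With arrays scaled to the 75th percentile these were 0.03, 0.10 and -0.58, while the median of all genes moved from -0.02 to -0.14. All of these rest on the array that stood apart. Over the 7 members with 2 detected probes, the 2 brightest gave the same sign for 4, and ACLY (-0.31 and 0.50), SDHC (0.03 and -0.54) and CS (0.17 and -0.18) did not.

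**Figure D3:**
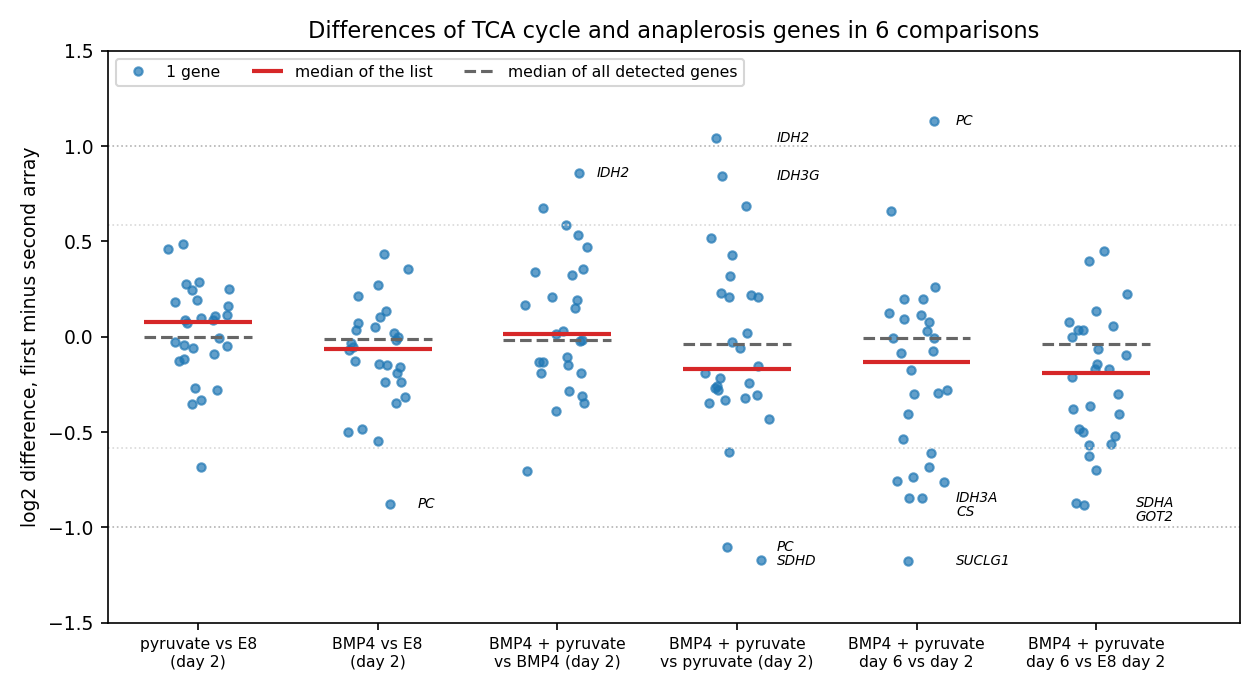
Each point is the log2 difference of 1 gene between the 2 arrays named below it, first minus second; red bars give the median of the list, dashed bars the median of all detected genes, and dotted lines mark 1.5-fold and 2-fold. The list's medians lie between -0.19 and 0.08, and single genes reach 1.13 (PC, day 6 against day 2) and -1.18 (SUCLG1). Among genes detected on both arrays compared, the highest value is 1.04 (IDH2). PC is plotted at its measured values, although its probe was not detected with BMP4 or with both agents at day 2.

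BMP4 added to pyruvate, set against pyruvate alone at day 2, went with a higher level of IDH2 (1.04) and lower levels of SDHD (-1.17) and PC (-1.10). These are 1 of 28 members higher by 2-fold or more, where 6.46% of all genes were, and 2 lower, where 5.77% were. At 1.5-fold, IDH3G (0.85) and SUCLG1 (0.68) were also higher and SUCLG2 (-0.60) also lower, which gives 3 higher and 3 lower, where 15.5% and 16.8% of all genes were. The median was -0.17 over members and -0.04 over all genes. The PC probe was not detected with both agents, and against the lowest detected signal on that array its bound is -0.997, short of 2-fold. The second PC probe, undetected with pyruvate alone and at the detection limit with both agents, gave 0.39. With scaling to the 75th percentile, 2 members were higher and 9 lower by 1.5-fold or more, with a median of -0.39 (-0.18 over all genes). The 2 brightest probes gave the same sign for 1 of the 8 members with 2 detected probes, in the comparison where the SD between probes was 0.635 over all genes.

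The 4 day 2 arrays form a cross of BMP4 and pyruvate with 1 array per combination, so the departure from additivity is a value without an error. It is the pyruvate difference in BMP4 minus the pyruvate difference in E8. Each departure uses the day 2 array with both agents, which stood apart. IDH2 had the highest departure of the members (1.54), ahead of IDH3G (0.92) and DLST (0.75), and SDHD the lowest (-1.19). Over the 28 members its median size was 0.25, against 0.39 over 11978 genes, and 3 members lay above 1.5-fold and 1 below it, against 1979 and 1880 of all genes. The pyruvate differences in E8 and in BMP4, which share no array, had the same sign for 11 of 28 members, with a Pearson correlation of -0.34 and a Spearman correlation of -0.20 across members. Over all genes the sign was the same for 5941 of 11978, and the correlations were 0.0985 and 0.0410. The BMP4 differences without and with pyruvate, which also share no array, had the same sign for 14 of 28 members, with correlations of 0.28 and 0.19. Over all genes these were 6805 of 11978, with correlations of 0.491 and 0.274. Genes on an array share its depth and handling, so these correlations describe the arrays only.

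Between day 2 and day 6 of BMP4 plus pyruvate, SUCLG1 was lower (-1.18) and PC higher (1.13), which makes 1 of 28 members lower by 2-fold or more and 1 higher, where 13% and 13.5% of all genes were. At 1.5-fold, 8 members were lower, where 24.3% of all genes were, namely SUCLG1, CS (-0.85), IDH3A (-0.85), GOT2 (-0.76), SUCLA2 (-0.75), DLST (-0.73), GLUD1 (-0.68) and IDH3G (-0.61). SUCLG2 (0.66) and PC were the 2 members higher, where 24.3% of all genes were. The median was -0.13 over members and -0.01 over all genes. With scaling to the 75th percentile the members' median turned to 0.10, while that of all genes moved to 0.11 and 3 members were lower. The 5 genes from 2-oxoglutarate to succinate had a median of -0.73 and, with that scaling, -0.50. This comparison also rests on the array that stood apart at day 2, where the brightest PC probe was not detected. The bound of that probe alone is at least 2.04-fold higher at day 6. The second PC probe, at the detection limit at day 2 and undetected at day 6, gave -0.30. Over the 8 members with 2 detected probes, the 2 brightest gave the same sign for 5. PC, IDH1 (0.03 and -0.51) and PCK2 (0.26 and -0.77) did not. The second CS probe gave -0.51, short of 1.5-fold, and the third -1.75. The SD between probes was 0.755 over all genes.

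Day 6 of BMP4 plus pyruvate, set against E8 at day 2, does not use that array. GOT2 (-0.88), SDHA (-0.87), CS (-0.70) and MDH2 (-0.63), whose promoters are printed above, were lower by 1.5-fold or more. These are 4 of 28 members, where 23.7% of all genes were lower, and 0 members were higher, where 21.8% of all genes were. At 2-fold, 0 members were lower (12.3% of all genes) and 0 higher (12.5%). The median was -0.19 over members and -0.04 over all genes, and 19 of 28 members lay below 0, where 52.1% of all detected genes did. Scaling to the 75th percentile gave the same 4 genes, at -0.84, -0.81, -0.64 and -0.62. The highest differences were those of PCK2 (0.45) and SDHC (0.40), for each of which a second probe had the opposite sign (-0.25 and -0.13), while one more PCK2 probe gave 0.59. Over all genes with 2 detected probes, the SD between probes was 0.671 here. Treatment, time in culture and lineage all differ between these arrays and cannot be told apart.

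**Figure D4:**
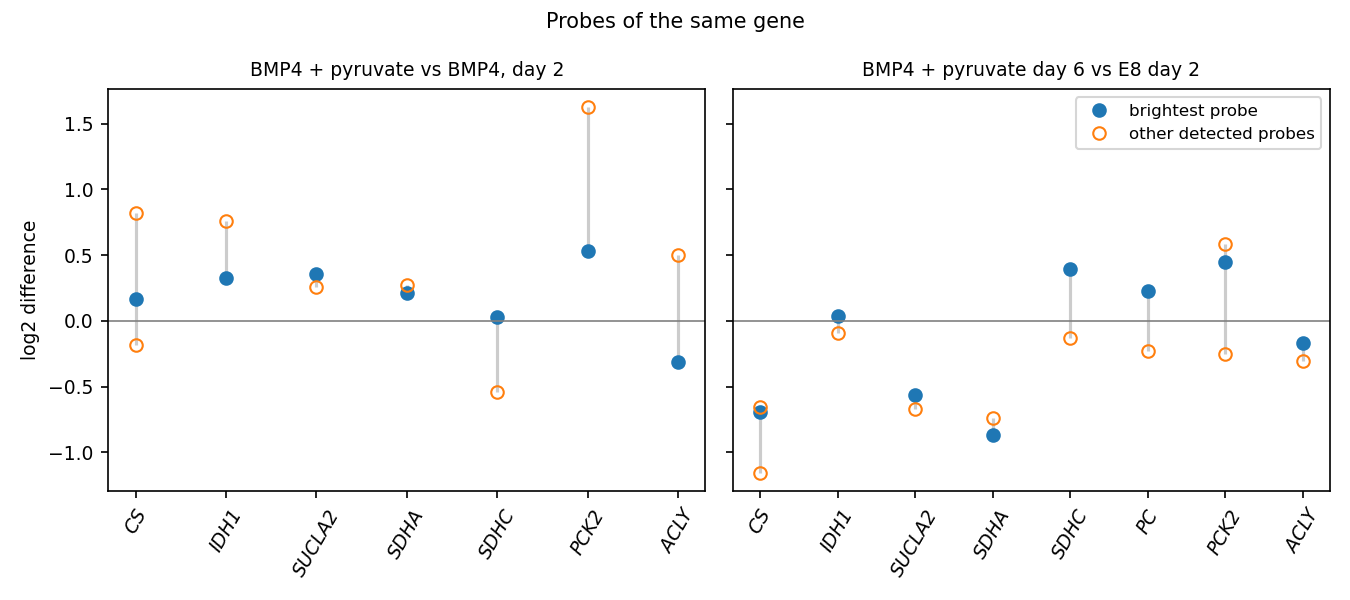
Filled points give the log2 difference of the brightest probe and open points those of the other detected probes of the same gene, for BMP4 plus pyruvate against BMP4 at day 2 (left) and for day 6 against E8 (right). At day 6 the probes of CS, SUCLA2 and SDHA all lie below 0, while PCK2 at day 2 has a probe at 0.53 and another plotted at 1.62, which was not detected with BMP4 and has a bound of 1.49.

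Genes beside the cycle were read from 6 further lists. ME1, the cytosolic malic enzyme that makes pyruvate from malate, had levels of 8.15 in E8, 9.08 with pyruvate, 8.08 with BMP4, 9.29 with BMP4 plus pyruvate and 9.39 at day 6. It was higher with pyruvate in E8 (0.94) and in BMP4 (1.21), and all 3 arrays with added pyruvate lay above both without. In its list of other enzymes of carbon entry and exit it was the only gene of 12 higher by 1.5-fold or more with pyruvate in E8 (5.16% of all genes). ABAT was the only one lower (7.12%), but it was not detected with pyruvate, and its bound is at least 1.05-fold lower. In BMP4, ME1 was the only one of 11 higher with pyruvate (12.5% of all genes), and BCAT2 (-0.65) the only one lower (12.1%). MPC1, a subunit of the mitochondrial pyruvate carrier, had 10.69, 11.24, 9.78, 10.63 and 10.64. It was lower with BMP4 than in E8 (-0.91) and higher when pyruvate was added to BMP4 (0.85). Of 10 detected carriers, 0 passed 1.5-fold with pyruvate in E8, where 5.16% of all genes were higher and 7.12% lower. With pyruvate in BMP4, 2 were higher (12.5% of all genes) and 1 lower (12.1%), with SLC1A5, a glutamine transporter, at 0.87 and SLC25A10, the dicarboxylate carrier, at -0.85.

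Some regulators of pyruvate dehydrogenase differed at day 2 between both agents and pyruvate alone, and between day 6 and E8. PDK3, a kinase that inactivates the complex, had levels of 11.57 in E8, 11.56 with pyruvate, 11.17 with BMP4, 10.65 with BMP4 plus pyruvate and 9.88 at day 6. It was lower with both agents than with pyruvate alone (-0.91), and PDP1, a phosphatase that reactivates the complex, was lower there too (-1.15). In that comparison 2 of 5 detected regulators were lower by 1.5-fold or more (16.8% of all genes) and 1 higher (15.5%), namely PDPR, which was not detected with pyruvate alone and lay at the detection limit with both agents. PDK4, another such kinase, was detected only at day 6 (6.84), at least 2.51-fold higher than in E8. PDK1 was also higher at day 6 than in E8 (1.09), so that 2 of 4 detected regulators were higher by 1.5-fold or more (21.8% of all genes) and 1 lower (23.7%). In E8 with pyruvate, 0 of 4 passed 1.5-fold, where 5.16% of all genes were higher and 7.12% lower. With pyruvate in BMP4, 1 of 5 was higher (12.5% of all genes) and 0 lower (12.1%). That gene was PDPR, not detected with BMP4, while PDK3 (-0.52) and PDP1 (-0.42) stayed short of 1.5-fold. The comparisons with both agents at day 2 use the array that stood apart. Among other TCA cycle enzymes and assembly factors, 2 of 11 were higher (21.8% of all genes) and 5 lower (23.7%) by 1.5-fold or more at day 6 than in E8, with OGDHL (-1.27) and DHTKD1 (-1.13), both relatives of OGDH, the lowest.

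Genes of mitochondrial maintenance and import had a lower median than the cycle at day 6, at -0.63 against E8 and -0.57 against day 2 over 24 genes (-0.57 and -0.37 with scaling to the 75th percentile). Against E8, 13 of 24 were lower by 1.5-fold or more (23.7% of all genes) and 1 higher (21.8%). HSPE1, a mitochondrial chaperonin subunit, had levels of 11.86 in E8, 12.03 with pyruvate, 11.97 with BMP4, 11.84 with BMP4 plus pyruvate and 10.68 at day 6. PHB1, a prohibitin of the inner membrane, had 11.05, 11.54, 11.14, 11.34 and 9.82. PPARGC1A, a coactivator of mitochondrial genes, was the one gene higher (6.58 in E8, 8.37 at day 6), and its relative PPARGC1B was at least 2.90-fold lower, since it was not detected at day 6. Of 7 regulators, 3 were lower by 1.5-fold or more at day 6 than in E8 (23.7% of all genes) and 1 higher (21.8%). MYCN (-1.89), MYC (-0.73) and ESRRA (-0.61) were lower, and DDIT3, a stress-induced factor, was at least 3.25-fold higher.

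**Figure D5:**
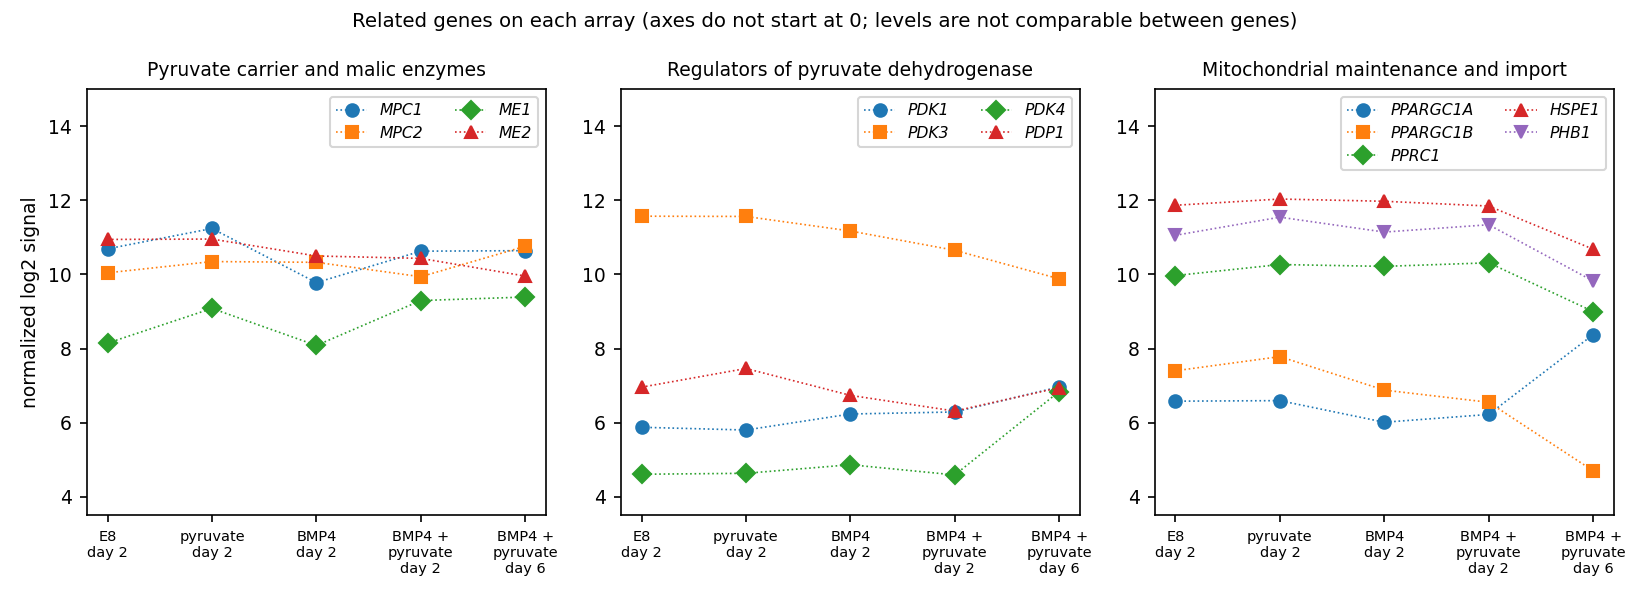
Points give the normalized log2 signal of related genes on each of the 5 arrays, with dotted lines only to guide the eye, for the pyruvate carrier and malic enzymes (left), regulators of pyruvate dehydrogenase (middle) and mitochondrial maintenance and import (right). ME1 stands at 9.08 to 9.39 on the 3 arrays with pyruvate and at 8.08 and 8.15 on the other 2.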

How the data were processed

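RNA of H1 cells was measured on 5 BeadChip arrays, 1 per condition, grouped by the treatment in each sample's labels. The deposited intensity table holds 1 signal per probe and array, without normalization per the file headers, with a deposited detection p-value beside each signal. The other deposited table, of log2 values, does not say how they were made, and it was used only as an alternative. The scanner software is not given in the sources used here. All 15 columns of per-sample values were used.

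Intensities were corrected with limma 3.58.1 in R 4.3.3 (neqc: normexp from the detection p-values, offset 16, quantile normalization, log2), and differences were taken in Python 3.11.15. Quantile normalization gives all arrays 1 distribution, so differences are relative to the other genes, and the offset shrinks those of dim probes. A probe was detected at a detection p under 0.01. Of the probes, 30105 had 1 gene symbol in the platform annotation, 8 had several and 17183 had none, and 30066 matched RefSeq by Entrez identifier. A gene detected on the brighter array was called higher or lower at 2-fold, and at 1.5-fold as a second rule. Such a call rests on size alone, with no test behind it. The 2-fold call was tested on simulated data, made from bright probes of the E8 array with added noise. Those data hold no differences between cultures, and the 1.5-fold call was not tested on them. Where no probe of a gene was detected on the dimmer array, a bound is given against the higher of the dim value and the lowest detected signal there. A bound given for a single probe is taken in the same way and holds for that probe alone.

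The members and lists were chosen with earlier results of these data known. The rule names all members, up to 4 genes of each further list past 1.5-fold in each comparison, and POU5F1, NANOG, SOX2, TBXT, MIXL1 and GATA4, and the text leaves some of them out. Some genes of the further lists are not reported here. Alternatives were no background correction, offset 50, scaling to the 75th percentile in place of quantiles, the deposited log2 values, the mean of detected probes, a detection p under 0.05, normalization of only the arrays compared, and the second brightest probe.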

Additional observations from a re-analysis of the deposited data

Results flagged for a closer look

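IDH2 was the one member whose differences for the same agent lay at least 0.5 log2 units from 0 in opposite directions in the absence and presence of the other agent. The share of all genes that meet this limit is not given here, so the count of members has no background beside it. SDHD lay just outside this limit with pyruvate, at 0.49 without BMP4 and -0.70 with it. IDH2 was lower with pyruvate than in E8 (-0.69), and higher with both agents than with BMP4 alone (0.86). On the same 4 arrays, IDH2 was lower with BMP4 than in E8 (-0.50, at the limit), and higher with both agents than with pyruvate alone (1.04). Both pairs give the same departure from additivity (1.54), so the second pair is not a separate observation. Both positive differences rest on the day 2 array with both agents, which stood apart. The difference was not tested, since each value compares 1 array with 1 array and IDH2 has 1 probe. Under the 7 alternatives that keep this probe, the sign of each of these 4 differences was the same. This covers the sign only, not the limit of 0.5. The mean of detected probes and the detection p under 0.05 cannot change these differences, as IDH2 has 1 probe. The other alternatives reuse the same arrays.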

How the results depend on the processing

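No paired analysis was possible because the labels carry no replicate numbers and each condition had 1 array. Across the alternatives, 182 of 216 counts and medians of the list stayed close to the reported value, and none moved for day 6 against E8. Scaling to the 75th percentile shifted the median of all genes to -0.14 for pyruvate in BMP4, -0.18 for BMP4 in pyruvate and 0.11 for day 6 against day 2. With it, 1 member was higher by 1.5-fold with pyruvate in E8. For pyruvate in BMP4, 3 were lower by 1.5-fold and the median was -0.12. For BMP4 in pyruvate, 0 were higher by 2-fold, 9 were lower by 1.5-fold and the median was -0.39. For day 6 against day 2, 0 were lower by 2-fold, 3 were lower by 1.5-fold and the median turned to 0.10. The departure from additivity of MDH2 moved from -0.30 to -0.94 with this scaling, in a set of alternatives for that quantity also chosen after seeing the data. Without background correction, 0 members were lower by 1.5-fold with pyruvate or with BMP4 in E8, and 1 was higher with pyruvate in BMP4. For BMP4 in pyruvate it left 0 higher and 1 lower by 2-fold and 1 lower by 1.5-fold, and for day 6 against day 2, 0 higher by 2-fold and 1 by 1.5-fold. With offset 50, 0 were lower by 1.5-fold with BMP4 in E8, 0 were higher and 1 lower by 2-fold for BMP4 in pyruvate, and 0 were higher by 2-fold for day 6 against day 2. The deposited log2 values gave 1 lower by 2-fold for BMP4 in pyruvate and 0 higher by 2-fold for day 6 against day 2. The mean of detected probes gave 1 lower by 2-fold and a median of -0.018 for BMP4 in pyruvate, and 0 higher and 2 lower by 2-fold, 1 higher by 1.5-fold and a median of -0.26 for day 6 against day 2. The second brightest probe, an alternative chosen after seeing the data and available for 8 members, gave medians of -0.039, -0.24, 0.39, 0.19 and -0.53 in the first 5 comparisons, and turned PC to 0.39 for BMP4 in pyruvate and to -0.30 for day 6 against day 2. The cause was not tested. With 1 array per condition, a difference between cultures, arrays or scans cannot be told apart from the treatment. The SD between probes ranged from 0.586 to 0.755 in the comparisons that use the day 6 array or the day 2 array with both agents, against 0.585 for a 1.5-fold difference.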
